A study of Mus musculus with 2 samples.

Results

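The insulin receptor substrate (IRS), phosphoinositide 3-kinase (PI3K) and AKT genes read here are Irs1, Irs2, Pik3ca, Pik3cd, Pik3cg, Pik3r1, Akt1, Akt2 and Inpp5d. They were taken as every probe for genes whose RefSeq accession belongs to one of these 9 genes, which gave 15 probes out of 39424, and 9 genes out of 20656 with a symbol. The cells were bone marrow-derived macrophages (BMDMs), which are grown from mouse marrow precursors and, per the methods, the donor mice were male, aged 8 weeks and of the genotype Crif1 f/f. Both groups thus carried the floxed Crif1 allele, and the array methods name no Cre driver. One group was left untreated and the other received IL-4, a type 2 cytokine, and both were labelled 18 h. Each group was 1 array of Cy3-labelled RNA, so every difference between the groups has no replicate check, no p-value is given, and precision is limited by having 1 array on each side. Whether the RNA of an array came from 1 culture or several is not stated.

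IRS1 and IRS2 are docking proteins without enzyme activity of their own. A receptor with a bound ligand, such as that for insulin, IGF-1 or IL-4, brings them to the membrane, where their phosphorylated tyrosines dock the regulatory subunit of PI3K. The catalytic subunit then makes the lipid PIP3, which recruits the AKT kinases, and the lipid phosphatase SHIP1, the product of Inpp5d, removes PIP3 again in blood cells. In macrophages the IL-4 receptor signals along this route as well as through the transcription factor STAT6, and IRS2 is the docking protein best known for that link.

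In these arrays none of the 9 genes differed 2-fold between the groups, beside 2.86% of all genes higher and 4.47% lower by that much. Counts and shares over all genes, here and below, include probes without a symbol, each under its own identifier. The larger differences were those of Irs1, Inpp5d and Pik3cd. Irs1 was 1.30-fold higher after IL-4, Inpp5d was 1.39-fold lower, and Pik3cd, which encodes the p110δ catalytic subunit, was 1.28-fold lower at its brightest probe. Irs2, Pik3r1, Akt1, Akt2, Pik3ca and Pik3cg differed by 1.05-fold to 1.11-fold. All 15 probes were well above background on both arrays by the scanner software's own flag, none carried an outlier flag, and each was printed in 1 spot.

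The errors available are those within an array. The software gave an error of 10% to 12.3% of the intensity for these spots, which amounts to 0.20 to 0.24 on the log2 scale for a difference between the arrays. Each probe had 1 spot, so this error was not read from its repeats. For the brightest probe of each gene it was nearly the same, from 0.204 at Akt1 to 0.210 at Pik3ca. Multiples of it are thus close to the log2 difference divided by a constant. The SD of the log2 difference between spots of 1 probe, read from probes of similar signal printed in 10 spots, was smaller, 0.044 to 0.081 for the brightest probe of each gene. For 2983 genes with at least 2 probes for the same transcript measured on both arrays, the 2 brightest probes differed in their log2 difference by a median of 0.12, and by 0.43 at the 90th percentile. A difference of the size seen for Irs2 or Akt1 is therefore of the order by which probes of a single gene disagree. None of these errors covers the spread between cultures.

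**Figure D1:**
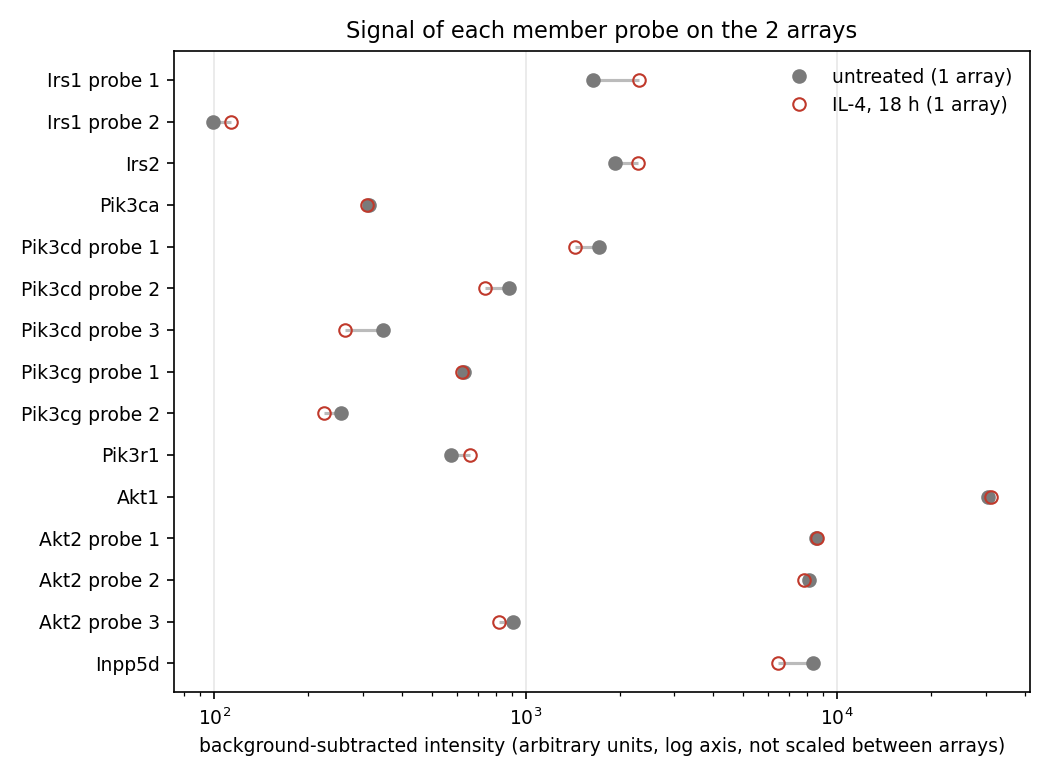
Background-subtracted intensity of each of the 15 probes for the untreated (filled grey) and the IL-4 array (open red), on a log axis and before any scaling between arrays. Probes of a gene are numbered from the brightest, and a reader should see short lines throughout, pointing right for Irs1, Irs2 and Pik3r1 and left for Inpp5d and for all 3 probes of Pik3cd.

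The brighter probe for Irs1 had an intensity of 1649 untreated and 2304 after IL-4. The signal was thus higher after IL-4, by 0.38 on the log2 scale once each array was scaled to the 75th percentile of its probes, with a spot SD of 0.056, and this is 1.87 times the software's own error. The dimmer Irs1 probe, with intensities of 99.1 and 113, had a log2 difference of 0.09 with a spot SD of 0.16, so it lay within its spot error of 0. The higher Irs1 signal therefore rests on 1 of its 2 probes. Of the 17242 genes or unnamed identifiers measured on both arrays, 8.58% had a higher log2 difference than Irs1.

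Irs2 was read from a single probe, with intensities of 1927 in untreated and 2288 in IL-4-treated BMDMs. Its log2 difference was 0.15 with a spot SD of 0.055, which is 0.72 times the software's own error. In all, 24.4% of the genes measured on both arrays had a higher difference than Irs2. The difference of Irs1 exceeded that of Irs2 by 0.24 at their brightest probes, where the SD of such a gap is 0.078 between spots and 0.29 by the software's error, but the dimmer probe of Irs1 lay below Irs2.

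Of the catalytic subunits of PI3K, Pik3cd encodes p110δ, which with p110γ is enriched in white blood cells. Its brightest probe had an intensity of 1716 untreated and 1434 after IL-4, the next 881 and 737, and the dimmest 349 and 262. All 3 probes were lower on the IL-4 array, by log2 differences of -0.36, -0.36 and -0.51, with spot SDs of 0.058, 0.061 and 0.081. They are 1.75, 1.74 and 2.47 times the software's error. The first probe was designed to the transcript NM_008840 and the others to NM_001164051, so both of the array's transcript models for this gene went the same way. Among all genes measured on both arrays, 13.5% had a lower difference than the brightest Pik3cd probe, and among the 4120 of similar signal 8.37% did.

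Pik3cg encodes p110γ, the catalytic subunit that G protein-coupled receptors activate. Its 2 probes had intensities of 634 and 256 untreated, and of 624 and 225 after IL-4. The log2 differences were -0.12 for the brighter probe, with a spot SD of 0.062, and -0.28 for the dimmer one, with a spot SD of 0.092. Pik3ca encodes p110α, the catalytic subunit that most tissues use downstream of insulin. Its probe gave 314 untreated and 310 after IL-4, a scaled log2 difference of -0.12 with a spot SD of 0.081. Pik3ca and Pik3cg did not differ beyond their spot error, with a gap of 0.0039 and a spot SD of 0.10. Pik3cd lay 0.24 below each of them, against a spot SD of 0.099 for the gap to Pik3ca and 0.085 for the gap to Pik3cg. By the software's error the SD of either gap is 0.29, so Pik3cd could not be told from them on that measure, and the dimmer Pik3cg probe lay near Pik3cd. Under the 10 ways of scaling and background correction tried, these gaps stayed in the same direction, between 0.14 and 0.32 for Pik3ca and between 0.19 and 0.29 for Pik3cg. Only quantile normalization, cyclic loess and normexp could change them, because the other settings shift these probes by a constant.

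Pik3r1, which encodes the p85α regulatory subunit and its shorter forms, was measured by 1 probe. Its intensity was 574 in untreated and 662 in IL-4-treated BMDMs, a log2 difference of 0.11 with a spot SD of 0.061. The regulatory subunit and p110δ thus had values of opposite sign, 0.46 apart on the log2 scale. This gap is 1.60 times its SD by the software's error. It lay between 0.43 and 0.51 under these 10 settings, of which again only quantile normalization, cyclic loess and normexp could change it.

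**Figure D2:**
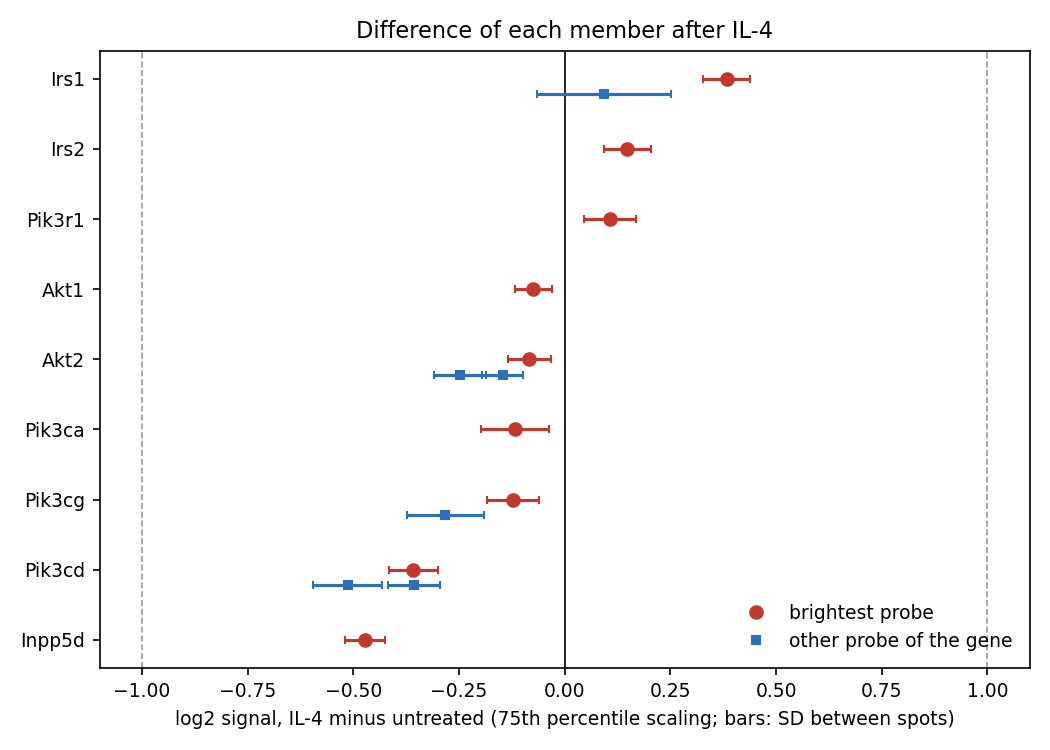
Difference in scaled log2 signal, IL-4 minus untreated, for the brightest probe of each gene (red circles) and for its other probes (blue squares), ordered by the brightest probe. Bars are the SD between spots of probes of similar signal and dashed lines mark a 2-fold difference, which no probe reached. All 3 Pik3cd probes lie below -0.3 and the brighter Irs1 probe stands apart from the dimmer one.

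AKT1 and AKT2 are the serine/threonine kinases that carry the PIP3 signal on, and AKT2 is the form best known for insulin-stimulated glucose uptake. The Akt1 probe was among the brighter ones on the arrays, with 30602 untreated and 31152 after IL-4. The scaled log2 difference of Akt1, -0.07, is 1.68 times its spot SD, which rests on 10 probes of similar signal. Of the genes measured on both arrays 60.1% had a higher difference, and of the 1192 of similar signal 80.0% did. The 3 probes for Akt2 had intensities of 8528, 8113 and 908 untreated, and of 8623, 7852 and 819 after IL-4. Their log2 differences were -0.08, -0.15 and -0.25, which spread over 0.16 although all were designed to the same transcript. Akt1 and Akt2 were 0.0096 apart at their brightest probes, with a spot SD of 0.067, so they could not be distinguished.

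Inpp5d, which encodes SHIP1, had the largest difference in size of the 9 genes at their brightest probes with the scaling used here. It did so in 6 of the 10 settings, and Irs1 did in the other 4, which were median scaling, spike-in scaling, no scaling and normexp. The 6 are not separate checks. They include the scaling used here and, with nearly the same values, flagged spots kept and the authors' values. The only Inpp5d probe had an intensity of 8384 in untreated and 6474 in IL-4-treated BMDMs. This is a log2 difference of -0.47 with a spot SD of 0.048, and 2.32 times the error the software gives. Among all genes measured on both arrays 8.65% had a lower difference, and among the 2880 of similar signal 3.58% did. The genes most like it were those of similar mean signal with the nearest log2 difference, a likeness over 2 arrays only. They were Pdgfrb at -0.473, Sidt2 at -0.471, Fam234a at -0.471, Ctla2b at -0.475 and Numa1 at -0.476.

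In order of the log2 difference at the brightest probe, Irs1 was followed by Irs2, Pik3r1, Akt1, Akt2, Pik3ca, Pik3cg, Pik3cd and Inpp5d. Between neighbours the gap was more than 2 spot SDs from Irs1 to Irs2, from Pik3r1 to Akt1 and from Pik3cg to Pik3cd, and not between the others. Of the 36 pairs among the 9 genes, 28 were apart by more than 2 spot SDs but only 4 by more than 2 SDs of the software's error. These were Irs1, Irs2 and Pik3r1 against Inpp5d, and Irs1 against Pik3cd. Such gaps within an array do not depend on a constant that scales the arrays. The widest was from Irs1 to Inpp5d, 0.86 or 1.81-fold, and it lay between 0.86 and 0.90 under the 10 settings. This gap describes the 2 arrays at the brightest probes. It does not show whether 1 or both of the signals changed, nor by how much.

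The direction of the smaller differences depended on the scaling, because the arrays set no absolute level. Scaling on the median of all probes moved the median of all genes up by 0.21, and scaling on the spike-in controls, which detect synthetic RNA added to each sample, by 0.34. At their brightest probes, Irs1, Irs2 and Pik3r1 were higher after IL-4, and Pik3cd and Inpp5d lower, in all 10 settings. The dimmer Irs1 probe was at -0.09 with normexp. Keeping flagged spots and using the authors' values gave nearly the same values as the scaling used here, so the settings are not separate checks. With spike-in scaling, however, Pik3cd was at -0.02 and Inpp5d at -0.13, while Irs1 was at 0.72. Akt1 and Akt2 were lower in 7 settings and higher in 3, and Pik3ca and Pik3cg lower in 8 and higher in 2. Taken relative to the median of all genes in each setting, Irs1 lay between 0.37 and 0.50, Pik3cd between -0.38 and -0.29, and Inpp5d between -0.53 and -0.39. Constant shifts cancel in these values, so only quantile normalization, cyclic loess and normexp could move them by more than rounding. Akt2 was the only gene of the 9 whose sign then changed.

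**Figure D3:**
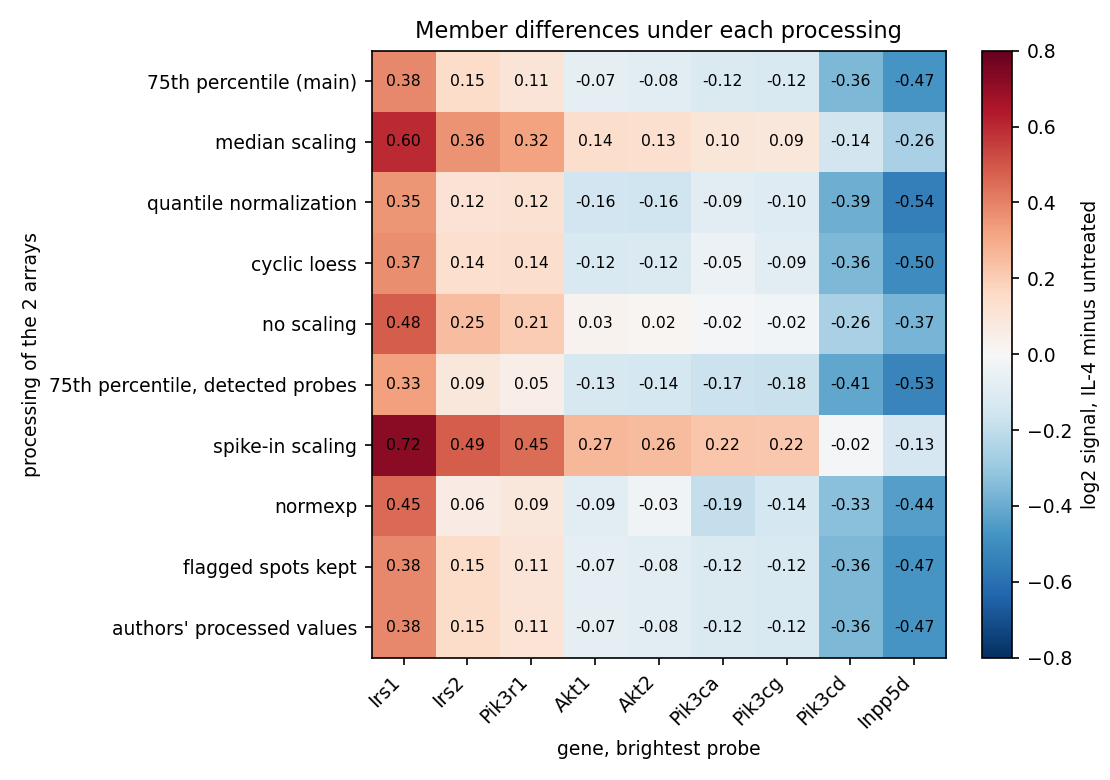
Log2 difference, IL-4 minus untreated, of the brightest probe of each gene (columns, ordered from the highest) under each of the 10 ways of processing the arrays (rows). Red cells are higher after IL-4 and blue cells lower; the columns for Irs1, Irs2 and Pik3r1 stay red and those for Pik3cd and Inpp5d stay blue, while Akt1, Akt2, Pik3ca and Pik3cg turn red with median and spike-in scaling.

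The background for these counts is the whole array. A total of 19743 genes or unnamed identifiers passed the background flag on 1 array or more. On the IL-4 array the signal was higher by 2-fold or more for 564 of them, or 2.86%, and lower by 2-fold or more for 883, or 4.47%. Of those past 2-fold, 39.0% were higher, and this share was 52.3% with cyclic loess, 52.6% with normexp, 60.1% with quantile normalization, 59.5% with median scaling and 70.4% with spike-in scaling. Of the 9 genes, 0 were in either class, also at 1.5-fold, and with so few genes this is near the background. At 1.5-fold, 807 of the 17242 genes measured on both arrays were higher and 966 lower. The median log2 difference of the 9 genes was -0.08, with 3 above 0 and 6 below, beside a median of -0.01 over all 17242 genes measured on both arrays. With median scaling these medians were 0.13 and 0.20. Of all genes, 86.4% lay within 0.5 log2 units of 0, as all 9 of these genes did.

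**Figure D4:**
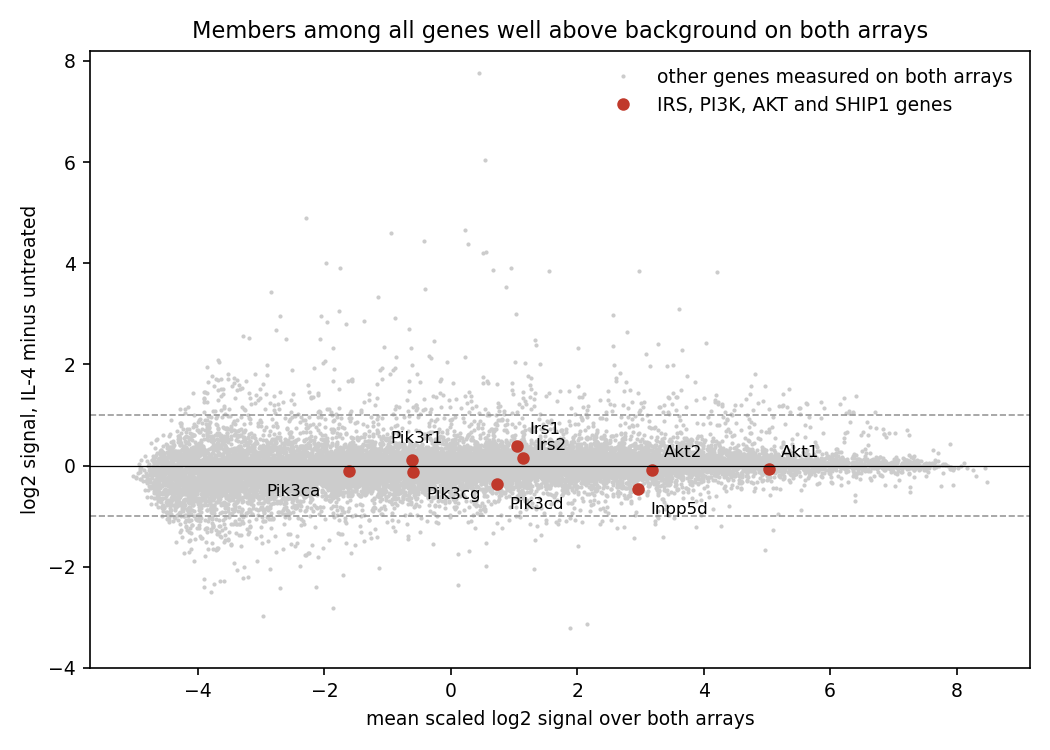
Log2 difference, IL-4 minus untreated, against the mean scaled log2 signal for each gene well above background on both arrays (grey) and for the 9 genes (red, labelled), each from its brightest probe. Unnamed identifiers are drawn as genes, but those named by a chromosome region are left out of the plot. Dashed lines mark a 2-fold difference; the 9 genes lie between them, with Irs1 at 0.38 as the highest and Inpp5d at -0.47 as the lowest.

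The markers of the IL-4-driven M2 state, Arg1, Retnla, Chil3 and Mrc1, were all over 2-fold higher on the IL-4 array. Mrc1 was 5.33-fold, Chil3 14.2-fold, Arg1 216-fold and Retnla, which was not well above background untreated, at least 595-fold higher. Both arrays lay on the same slide, so array position and treatment cannot be told apart, 59.8% and 57.4% of their spots for genes were well above background, and none was saturated. The macrophage markers Adgre1, Itgam, Csf1r, Mertk and Fcgr1 were well above background on both arrays, while Mertk and Fcgr1 were 2.20-fold and 2.34-fold lower after IL-4. Cd68 and Ly6g have no probe matched by accession.

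Of the markers of other cells, all 4 for fibroblasts, among them Col1a2 with intensities of 233342 and 234332, were well above background on both arrays. The summed scaled signal of the fibroblast list was 8.37 on the log2 scale untreated and 8.23 after IL-4. The neutrophil list summed to 5.32 and 5.19, with its 5 matched genes well above background. The eosinophil list summed to 0.02 and 0.07, with Epx above background on neither array, and the lymphocyte list to 0.01 and -0.14, with 5 of 7 genes above background on neither. Of the 3 dendritic cell markers Flt3 and Xcr1 were above background on neither array. The part of such cells in the differences above was not tested, and in bulk RNA fewer cells of a type and less RNA per cell cannot be told apart.

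The rest of the pathway was read from a list of 66 other genes grouped by role. Both arrays measured 59 of them above background, 1 array only 5, and neither array 2. At least 2-fold higher was 1 gene, Dok2, and at least 2-fold lower were 2, Tsc2 and Foxo6, beside 2.86% and 4.47% over the whole array. The median log2 difference of the 59 genes was -0.02, with 25 above 0 and 34 below, and 49 within 0.5 log2 units of 0. As for the 9 genes, the centre of this list lay close to that of all genes, at -0.01.

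Among the ligands and receptors, Igf1 stood out. It encodes the growth factor that signals through the IGF-1 receptor and IRS proteins, and macrophages are known to secrete it. Its brightest probe had an intensity of 11767 untreated and 22477 after IL-4, a log2 difference of 0.83 or 1.78-fold. The other 3 Igf1 probes had log2 differences of 0.96, 1.31 and 1.40, so all 4 were higher on the IL-4 array and 2 of them passed 2-fold. The receptors lay below 0 with this scaling. Igf2r, which clears IGF-2 and sorts lysosomal enzymes, had a difference of -0.45, Igf1r of -0.37 and Insr, the insulin receptor, of -0.20. Insr has 3 probes, and its -0.20 is from the brightest, while the lowest value among them was -0.73.

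Of the 14 other adaptors, 13 were measured on both arrays, with 6 above 0 and 7 below. Dok2, a docking protein that restrains signalling from tyrosine kinases in myeloid cells, went from an intensity of 10319 to 29229, 2.64-fold higher after scaling, with a log2 difference of 1.40 and a spot SD of 0.046. It was at least 2-fold higher in every one of the 10 settings, between 1.32 and 1.74. Dok1 had a log2 difference of 0.51. The lowest adaptor was Pik3ap1, which encodes BCAP, an adaptor that links B cell and Toll-like receptors to PI3K. Its intensity was 211 untreated and 119 after IL-4, a log2 difference of -0.93 with a spot SD of 0.11. For Gab3 the probes disagreed, with 0.63 at the brighter and -0.98 at the dimmer one.

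Of the 11 PI3K subunits and regulators beside the 9 genes, 9 were measured on both arrays, 7 of them below 0, beside 52.6% of all genes. Their median log2 difference was -0.18, beside -0.01 over all genes, but 0.03 beside 0.20 with median scaling and 0.16 beside 0.32 with spike-in scaling. The lowest was Pik3ip1, which encodes a membrane inhibitor of PI3K, at -0.55 with a spot SD of 0.084. The highest was Pik3r6, a regulatory subunit of p110γ, at 0.09, and its partner Pik3r5 was at -0.18. Pik3cb, the p110β subunit, had a difference of -0.19. Pik3c2g was well above background only on the IL-4 array, which gives a lower bound of 1.68-fold, and Pik3c2b has no fold here.

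The group of AKT, the kinases upstream of it and their partner proteins had 7 genes, all within 0.5 log2 units of 0. The highest was Them4, which encodes an AKT-binding protein, at 0.18, with Pdpk1, the kinase PDK1, at 0.12 and Mtor at -0.03. Among the phosphatases and inhibitors, Inppl1, which encodes SHIP2, the close relative of SHIP1, had a difference of -0.31. Of those measured on both arrays the lowest was Phlpp1, an AKT phosphatase, at -0.74 with a spot SD of 0.10, and the highest Trib3, a pseudokinase that binds AKT, at 0.44. Inpp4b, a lipid phosphatase, was well above background only untreated, which gives a bound of at least 1.90-fold lower. The 11 genes of this role had a median of -0.03 over the 10 measured on both arrays.

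Downstream of AKT, 10 of the 16 genes measured on both arrays lay above 0 and 6 below, with a median of 0.05. Tsc2, a brake on mTORC1 that AKT inactivates, had intensities of 131 and 62.5 and a log2 difference of -1.17 with a spot SD of 0.17. It stayed lower in all settings but was under 2-fold with median scaling, spike-in scaling and normexp, at -0.95, -0.83 and -0.74, and with cyclic loess, at -0.998. Its partner Tsc1 was at 0.07. Foxo6, a forkhead factor, was at least 2.35-fold lower, as it was well above background on the untreated array only. This bound, -1.23 on the log2 scale with a spot SD of 0.29, was under 2-fold with quantile normalization and spike-in scaling, at -0.89 in both, and with normexp, at -0.63. Tbc1d1, a Rab regulator that AKT phosphorylates, was the highest of this role at 0.47.

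The FOXO factors are transcription factors that AKT keeps out of the nucleus, so genes they are known to induce were listed too. Of the 14, 12 were measured on both arrays, with 8 below 0 and 4 above and a median log2 difference of -0.29, beside -0.01 over all genes. With spike-in scaling these medians were 0.05 and 0.32. At least 2-fold changed were 0. The lowest were Sesn1, a stress-response inhibitor of mTORC1, from 6698 to 4079 or -0.82, and Fbxo32, a ubiquitin ligase subunit, from 937 to 621 or -0.69. The highest were Cited2 and Bcl6, both at 0.31. Among the factors themselves Foxo1 was at 0.03, and Foxo3 and Foxo4 were well above background on neither array. These genes respond to many inputs, and the part of AKT in these values was not tested.

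**Figure D5:**
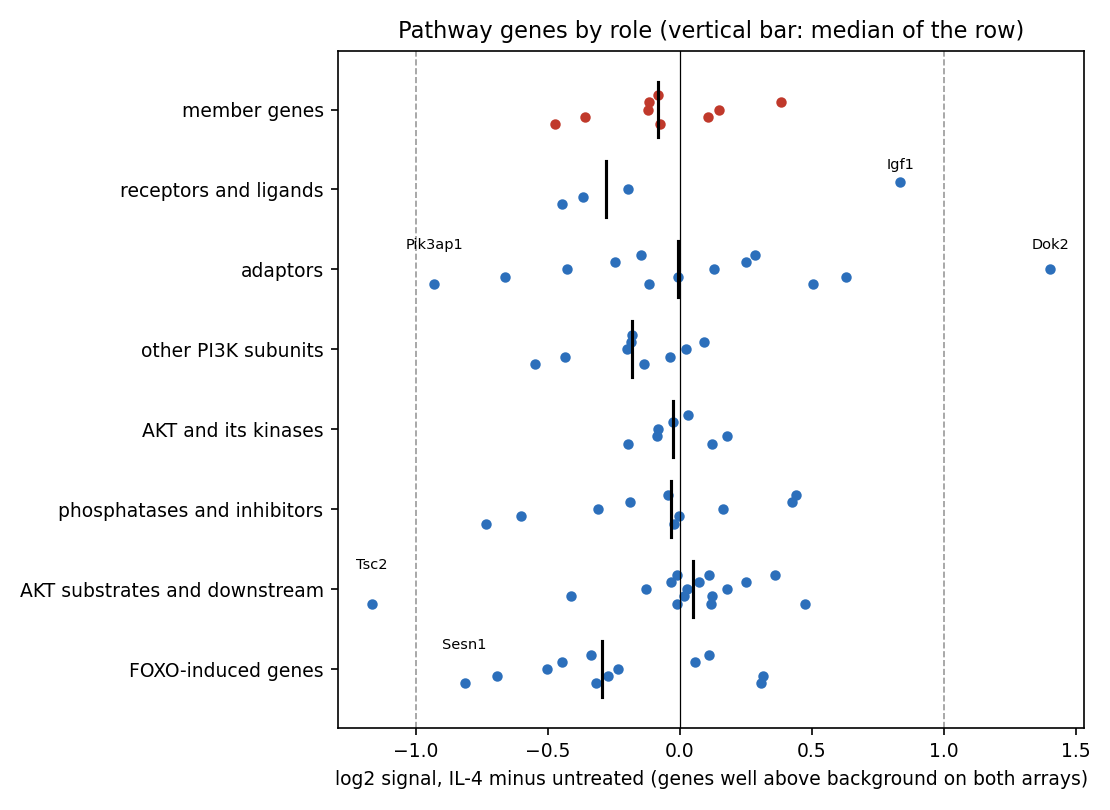
Log2 difference, IL-4 minus untreated, of each gene well above background on both arrays, by role in the pathway (rows), with the 9 genes in red and a vertical bar at the median of each row. Dashed lines mark a 2-fold difference, and names are given for genes at least 0.8 from 0. Dok2 at 1.40 and Tsc2 at -1.17 are the genes shown past the dashed lines.

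The start-site sequences of the 2 genes at the ends of the order, Irs1 and Inpp5d, are shown because STAT6, the main transcription factor of IL-4, binds a known kind of motif. The sequences are from RefSeq on GRCm38.p6, a later build than the mm9 annotation of the array, and all 9 genes were matched by symbol, to 17 start windows. Each line holds the 250 bases before the annotated start, 5′ to 3′ on the gene's own strand, in lower case, with a match to TTCNNNNGAA in capitals. The Inpp5d bases are at chr1:87620062-87620311 on the plus strand and the Irs1 bases at chr1:82291440-82291689 on the minus strand.
Inpp5d: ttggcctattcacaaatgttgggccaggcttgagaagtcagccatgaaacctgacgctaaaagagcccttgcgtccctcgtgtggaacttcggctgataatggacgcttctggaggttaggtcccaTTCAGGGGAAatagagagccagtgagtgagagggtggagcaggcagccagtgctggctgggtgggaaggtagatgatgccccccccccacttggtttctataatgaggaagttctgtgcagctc
Irs1: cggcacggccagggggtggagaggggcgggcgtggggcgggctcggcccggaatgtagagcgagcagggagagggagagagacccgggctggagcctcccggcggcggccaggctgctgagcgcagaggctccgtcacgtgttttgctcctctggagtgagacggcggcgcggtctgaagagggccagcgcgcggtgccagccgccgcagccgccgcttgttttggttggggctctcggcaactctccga

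The motifs TTCNNNNGAA, the spacing that STAT6 prefers, TTCNNNGAA, the spacing of other STAT factors, and GTAAACA, a FOXO motif, were searched on both strands in windows from 250 bases before to 50 after the start. TTCNNNNGAA was found in 1 of the 17 windows, that of Inpp5d, beginning 124 bases before the start. Of all 32851 windows of this length, 6.95% hold it. TTCNNNGAA was found in 1 of the 17, which is 1 of the 4 windows of Akt2, beside 8.30% of all windows. GTAAACA was found in 2, at Pik3cg and Akt1, beside 3.65% of all windows. The Irs1 window holds none of the 3 motifs, and its 250 bases before the start have 72.4% G and C, beside a median of 52.4% over all windows. A match is only a description of the letters, and the arrays measured no binding.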

How the data were processed

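RNA of untreated BMDMs and of BMDMs given IL-4 for 18 h was each read on 1 single-colour Agilent mouse array, and samples were grouped by the labels. Scanner files from Feature Extraction 10.10.1.1, named in the file headers, were deposited by the authors and give each spot an intensity after background subtraction and spatial detrending, with no scaling from array to array. The authors also deposited a table of log2 values, whose normalization is not given in the sources used here. For the 15 probes, the log2 differences in that table equal those of the scaled scanner intensity after a constant offset of 0.00056. The scaling meant is the one described in the next paragraph. At its brightest probe Irs1 was at 0.383 in the authors' table and at 0.482 in the scanner intensity without scaling. The column medians of the authors' table are 0.16 and 0.016. The members, lists and alternatives were chosen with earlier results of these data known.

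From the intensity, control spots and flagged spots were left out, each probe's spots were averaged on the log2 scale, and the array's 75th percentile was subtracted, 9.84 untreated and 9.94 with IL-4. A probe was well above background where the software said so for the majority of its spots. Where that held on 1 array only, the fold is a bound, taken against the dim array's lowest signal above background or, if higher, the probe's measured signal there. Where it held on neither, no fold is given. A gene was read from its brightest probe. Symbols came through RefSeq accessions from a GRCm38.p6 table, for 27229 probes. Genes at least 2-fold different were counted, with no test. The named genes of the lists are those at least 2-fold different, the highest and lowest of each role, and the 5 nearest in difference to the member with the largest one. Some genes of the lists are counted but not reported here by name. Other genes of the lists are named beside these as examples chosen after their values were seen. Recovery by this count was tested on simulated data only for folds well past 2-fold, which does not bear on the smaller differences of the 9 genes. Alternatives were other scalings, normexp with an offset of 50 on the median pixel intensity, flagged spots kept, the authors' table, the median over probes, other filters and a 1.5-fold threshold. Python 3.11.15, numpy 2.4.6, pandas 2.3.3, matplotlib 3.10.9, R 4.3.3 and limma 3.58.1 were used.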

Additional observations from a re-analysis of the deposited data

How the results depend on the processing

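No paired analysis was possible because each group has 1 array. Adding probes that carry a symbol but no RefSeq accession was not run, because the scanner files hold no column of gene names. Under every alternative run, 0 of the 9 genes reached 2-fold in either direction. A log2 difference counts as moved here when it changes by at least the spot SD. Of 144 recomputed log2 differences, of probes or of the median over a gene's probes, 83 changed by less than that and 61 by at least that. Part of these counts was fixed by the settings, so they do not measure stability. Keeping flagged spots and using the authors' values gave nearly the same values. The median over probes cannot change a gene with 1 probe. The median of the 9 genes, -0.083, went to 0.13 with median scaling, 0.016 without scaling and 0.26 with spike-in scaling. That of the 59 other pathway genes measured on both arrays, -0.023, went to 0.19, 0.077 and 0.32 with these and to -0.082 with the median over the probes of a gene. Those 3 scalings shift every gene by a constant.

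Pathway genes at least 2-fold higher, 1 in the setting reported, numbered 2 with quantile normalization, median scaling, the values of the authors, the median over probes and no filter on dim probes, 3 with spike-in scaling and 4 at 1.5-fold. Those at least 2-fold lower, 2 as reported, numbered 1 with median scaling, quantile normalization, cyclic loess and a requirement of both arrays being above background, 0 with spike-in scaling and normexp, 3 in the values of the authors, 4 with no filter and 7 at 1.5-fold. Over all genes, 564 were higher and 883 lower by 2-fold as reported. Those higher numbered 848 in the values of the authors, 1051 with spike-in scaling and 295 with normexp, and those lower 1645, 441 and 266, with 564 under median scaling and 533 under quantile normalization. In the values of the authors, genes above background on 1 array only entered with their measured difference and not as a bound. The counts from those values therefore do not compare normalizations alone. The cause of the other changes was not tested. Single spots on 1 array per group limit what can be said of every difference given here. For the 9 genes, those under 0.2 on the log2 scale are also within the software's own error.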
